A study of Chlorocebus aethiops with 12 samples.

Results

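Nuclear factor kappa B (NF-kappaB) is a family of dimeric transcription factors that switch on inflammatory and survival genes. In resting cells IkB proteins hold the dimers in the cytoplasm, and inflammatory signals lead to the breakdown of IkB and the release of the dimers. Glucocorticoids dampen the same programme: the activated glucocorticoid receptor can repress NF-kappaB at its targets, and the gene of the inhibitor IkB-alpha is a known target of the hormone in several cell types. The genes described here are those of the subunits NFKB1, NFKB2, RELA and RELB, the IkB family members NFKBIA, NFKBIB, NFKBIE and NFKBIZ, and the ubiquitin-editing inhibitor A20 (TNFAIP3) with its binding partner ABIN1 (TNIP1).

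Members were taken by transcript record. Of the 10 records, 9 were found among the annotated probes, with 11 probes in all of 41000 distinct non-control probes on the array. NFKB2 (NM_002502) was not analysed here. TNFAIP3 and TNIP1 had 2 probes each under the same record, so counts of probes are not counts of genes. Which transcript forms each probe detects was not examined. The probe set was examined in COS-1 cells, a kidney line of the African green monkey transformed with SV40. They were transiently transfected with 2 tagged constructs, mCCRP-V5 (mouse CCRP, which is a nuclear receptor co-chaperone) and FLAG-hGR (the human glucocorticoid receptor). The receptor carried one of 2 replacements of a tyrosine, with phenylalanine, which cannot be phosphorylated (Y30F), or with the acidic glutamate (Y30E). Treatment began 40 h after transfection and lasted 6 h, with the synthetic glucocorticoid dexamethasone at 100 nM or with its vehicle, 0.1% DMSO. The 4 groups were therefore Y30F-DMSO, Y30F-DEX, Y30E-DMSO and Y30E-DEX, each with 3 arrays, and every group carried both constructs according to the sample descriptions. A second label names a single construct for each mutant, and the descriptions were followed. No group had the wild-type receptor or lacked a transfected receptor.

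RNA was measured on 1-colour Agilent arrays with human probes. A mismatch to the monkey transcript can lower a probe's signal, so a probe was set only against itself, and no order of levels among the genes was read. The level of a probe is the log2 of its processed signal minus the log2 of its array's 75th percentile, so that 0 is the signal below which 75% of spots lie. That percentile was a signal of 706 to 876 on the 12 arrays. Between 60.5% and 67.0% of spots were well above background, and 0 were saturated. Changes were tested with limma over 25570 probes, and a probe is said to have risen or fallen where its adjusted p was under 0.05. The precision is limited by the 3 arrays per group, which the labels do not describe as independent cultures, so the spread between them may be technical. Less RNA per cell and fewer transfected cells cannot be told apart in such bulk samples.

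The arrays lay on 3 slides of 4. The Y30F-DMSO arrays shared slide 1 with replicate 1 of Y30F-DEX, and the Y30E-DEX arrays shared slide 3 with replicate 3 of Y30E-DMSO. The remaining Y30F-DEX and Y30E-DMSO arrays were together on slide 2. No slide held both receptors under the same treatment. Values within a slide are given beside the results they touch.

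NFKBIA rose and the brighter probe of TNFAIP3 fell under dexamethasone with either receptor, and NFKBIE rose by a small amount in the average over both receptors. In each receptor 2 of the 10 member probes tested had changed, 1 higher and 1 lower, where 1.65% of all probes had changed with Y30F (1.27% higher and 0.375% lower) and 1.98% with Y30E (1.39% higher and 0.591% lower). In the average of both effects 3 of 10 had changed, 2 higher and 1 lower, against 3.57% of all probes (2.51% higher and 1.06% lower). At an unadjusted limma p under 0.05 there were 6 of 10 member probes in the average, beside 3523 of 25570 probes. With each receptor there were 4 of 10, beside 3298 of all probes with Y30F and 3561 with Y30E. The subunits NFKB1, RELA and RELB, the inhibitor NFKBIB, both probes of TNIP1 and the second, dim probe of TNFAIP3 (A_24_P166527) did not pass the test. The median change over the 10 probes was -0.09 (log2) in the average effect, beside 0.01 over all 25570 probes.

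**Figure D1:**
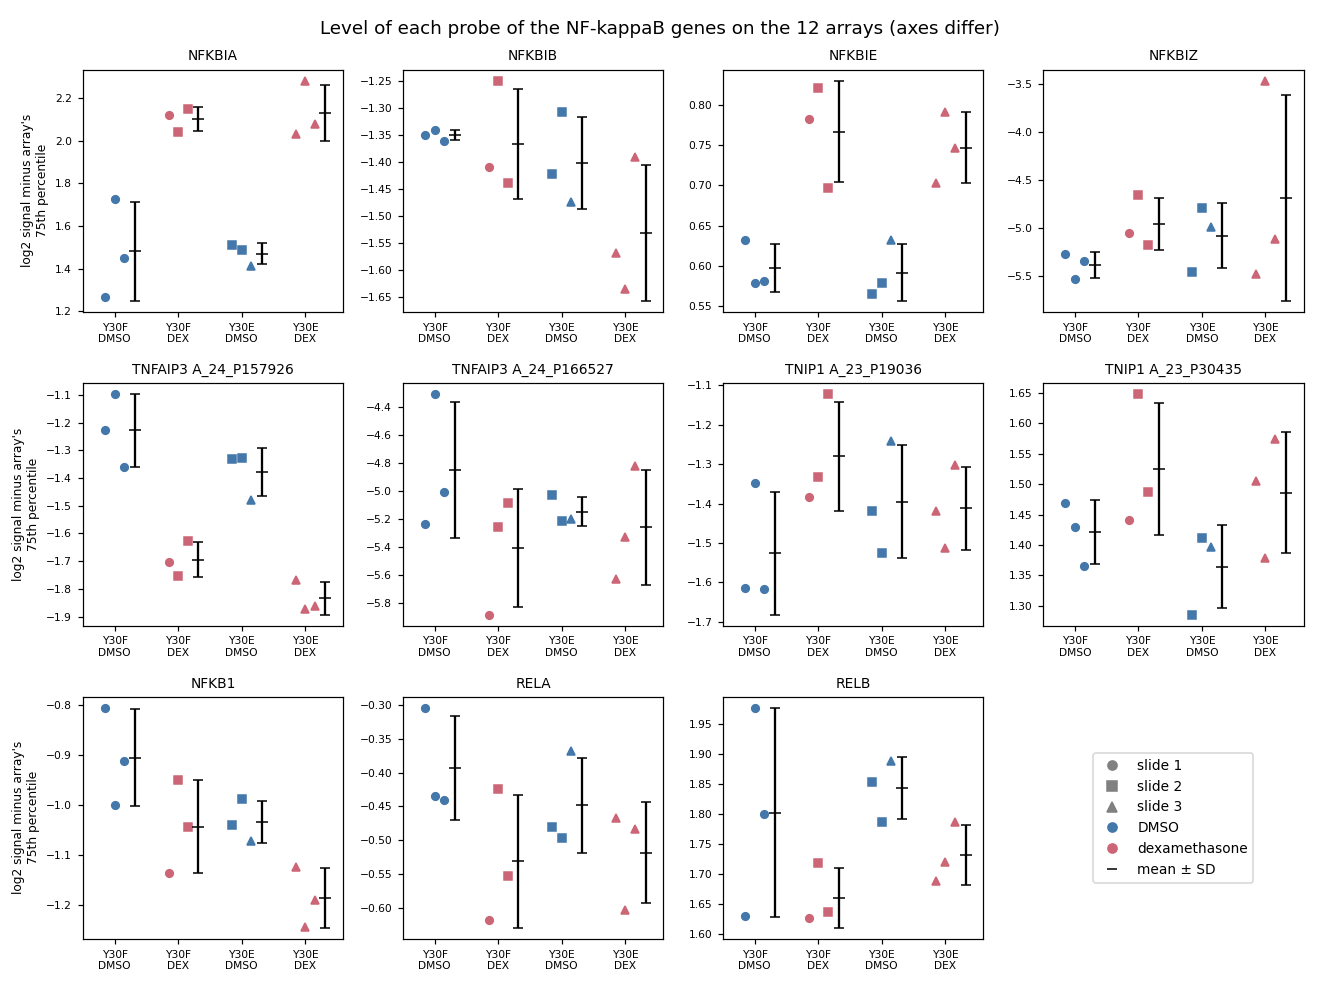
Level of each of the 11 probes on the 12 arrays (log2 signal minus the array's 75th percentile, y axis, with a different range in each panel), by group on the x axis. Points are arrays, colour is the treatment, marker shape the slide, and the bars are mean ± SD of 3 arrays. All 6 dexamethasone arrays lie above all 6 DMSO arrays for NFKBIA and NFKBIE and below them for the TNFAIP3 probe A_24_P157926.

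NFKBIA (NM_020529, probe A_23_P106002) encodes IkB-alpha, which masks the nuclear localisation signal of RELA-containing dimers. Its level in Y30F-DMSO was 1.27, 1.73 and 1.45 (log2, replicates 1 to 3), and in Y30F-DEX it was 2.12, 2.04 and 2.15. In Y30E-DMSO it was 1.51, 1.48 and 1.41, and in Y30E-DEX it was 2.03, 2.28 and 2.08. The groups did not overlap under either receptor, and the lowest dexamethasone array lay above the highest DMSO array of both receptors. The mean level was nearly the same in both DMSO groups, 1.48 ± 0.23 with Y30F and 1.47 ± 0.05 with Y30E (SD, n = 3), and in both dexamethasone groups, 2.10 ± 0.06 and 2.13 ± 0.13. Neighbours in this order differed by less than their SD except across the treatments.

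NFKBIA rose by 0.62 ± 0.11 with Y30F (log2, SE, limma adjusted p = 0.0152) and by 0.66 ± 0.11 with Y30E (adjusted p = 0.0111). The average rise was 0.64 ± 0.08, with a 95% confidence interval of 0.47 to 0.81, or 1.56-fold (adjusted p = 0.000704). It took rank 158 of 25570 probes from the top by size of the average change. The rise was also present on single slides. On slide 1 it was 0.64 with Y30F, where it did not pass the test (adjusted p = 0.516), and on slide 3 it was 0.72 with Y30E (adjusted p = 0.193), each with 1 array in an arm, which was assumed to vary as the other arm does. With slide as a fixed block the average rise was 0.68 (adjusted p = 0.0230), while neither receptor alone passed (adjusted p = 0.172 and 0.124). With slide 2 left out the average was the same 0.68 by construction, and it did not pass the test. Slide 2 held neither receptor under both treatments, so both fits take each effect from slide 1 or slide 3 alone. The call in Y30F was lost without Y30F-DMSO replicate 3 (0.61, adjusted p = 0.0638), without Y30F-DEX replicate 3 (0.60, adjusted p = 0.0775), with median centring (0.49, adjusted p = 0.0909) and with the Y30F groups fitted alone (0.62, adjusted p = 0.124).

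Differences in change between NFKBIA and the other IkB genes were not tested. NFKBIE (NM_004556, A_23_P30655), which encodes IkB-epsilon, stood at 0.63, 0.58 and 0.58 in Y30F-DMSO and at 0.78, 0.82 and 0.70 in Y30F-DEX. With Y30E the levels were 0.56, 0.58 and 0.63 under DMSO and 0.70, 0.79 and 0.75 under dexamethasone. These arrays also did not overlap by treatment. The average change was 0.16 ± 0.03 (log2, SE), or 1.12-fold (adjusted p = 0.0269), and neither receptor alone passed the test (0.17 with Y30F, adjusted p = 0.151, and 0.16 with Y30E, adjusted p = 0.185). The NFKBIE call was fragile: it was lost in 13 of 29 alternatives, among them slide as a fixed block (0.15, adjusted p = 0.293), and without any of 7 of the 12 arrays (adjusted p from 0.0630 to 0.0856). These were Y30F-DMSO replicate 3, Y30F-DEX replicates 1 and 2, Y30E-DMSO replicates 1 and 2, and Y30E-DEX replicates 2 and 3.

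NFKBIB (NM_002503, A_23_P79086) encodes IkB-beta. It stood at -1.35, -1.34 and -1.36 in Y30F-DMSO, and at -1.41, -1.25 and -1.44 in Y30F-DEX, which overlapped. In Y30E the DMSO arrays gave -1.42, -1.31 and -1.47, and the dexamethasone arrays -1.57, -1.63 and -1.39. The average change of -0.07 had an interval from -0.19 to 0.05 (adjusted p = 0.650).

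NFKBIZ (NM_031419, A_23_P212089) encodes a nuclear IkB protein that acts as a coregulator of NF-kappaB. Its probe was well above background on 6 of 12 arrays (1, 2, 2 and 1 in Y30F-DMSO, Y30F-DEX, Y30E-DMSO and Y30E-DEX) and did not pass the filter on dim probes. Its processed signal was 17.6 to 29.8 on 11 arrays and 73.9 on Y30E-DEX replicate 2. That array stood at -3.47 (log2), where the others of its group stood at -5.48 and -5.12. With no filter the average change was 0.41, with an interval of -0.29 to 1.11 (adjusted p = 0.813), so a change was not detectable at this signal.

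TNFAIP3 (NM_006290) encodes A20, which removes and edits ubiquitin chains on signalling proteins upstream of the IkB kinase. On probe A_24_P157926 the level was -1.23, -1.10 and -1.36 in Y30F-DMSO and -1.70, -1.75 and -1.63 in Y30F-DEX. In Y30E-DMSO it was -1.33, -1.33 and -1.48, and in Y30E-DEX it was -1.77, -1.87 and -1.86. Every dexamethasone array was below every DMSO array. The direction was the opposite of that of NFKBIA, although both genes encode inhibitors of the pathway.

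The TNFAIP3 probe fell by 0.47 ± 0.07 with Y30F (log2, SE, limma adjusted p = 0.00967) and by 0.45 ± 0.07 with Y30E (adjusted p = 0.0114). The average fall was 0.46 ± 0.05, to a level 27.3% lower (adjusted p = 0.000565), rank 128 of 25570 from the bottom by size. With slide as a fixed block the average was -0.41 (adjusted p = 0.0296), and neither receptor alone passed (adjusted p = 0.118 and 0.309). Within slide 1 the change was -0.47 with Y30F, and within slide 3 it was -0.36 with Y30E, without a call in either (adjusted p = 0.478 and 0.403). With slide 2 left out the average was the same -0.41 by construction, and it did not pass the test. The call in Y30F was lost with the Y30F groups fitted alone (-0.47, adjusted p = 0.101). The call in Y30E was lost without Y30E-DMSO replicate 1 or 2 or Y30E-DEX replicate 2 or 3, at adjusted p-values of 0.0521 to 0.0649, and with median centring (adjusted p = 0.0518).

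The second TNFAIP3 probe, A_24_P166527, was dim, well above background on 8 of 12 arrays (2, 1, 3 and 2 in Y30F-DMSO, Y30F-DEX, Y30E-DMSO and Y30E-DEX). Its processed signal ranged from 14.2 to 41.2. The average change was -0.33 with an interval of -0.77 to 0.10 (adjusted p = 0.539). This interval holds both 0 and the change of the brighter probe, so the second probe does not tell them apart.

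**Figure D2:**
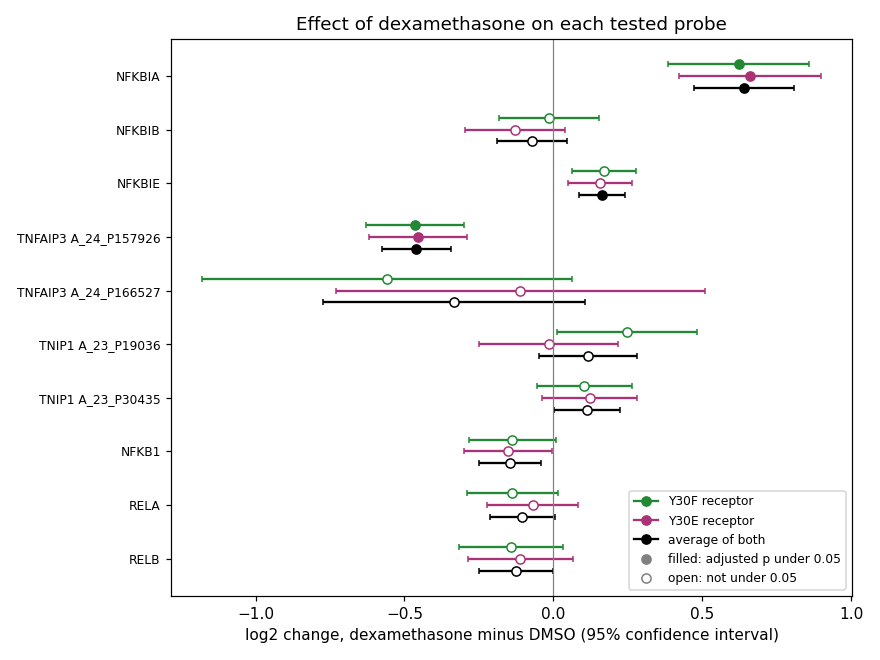
Change under dexamethasone (log2, dexamethasone minus DMSO, x axis) of the 10 tested probes with the Y30F receptor, the Y30E receptor and their average, with 95% confidence intervals from limma. Filled points have an adjusted p under 0.05: NFKBIA at 0.62, 0.66 and 0.64, TNFAIP3 A_24_P157926 at -0.47, -0.45 and -0.46, and the average of NFKBIE at 0.16.

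TNIP1 (NM_006058) encodes ABIN1, a ubiquitin-binding adaptor of A20. On probe A_23_P30435 it stood at 1.47, 1.43 and 1.37 in Y30F-DMSO and 1.44, 1.65 and 1.49 in Y30F-DEX, and in Y30E at 1.29, 1.41 and 1.40 under DMSO and 1.51, 1.38 and 1.57 under dexamethasone. The groups overlapped with either receptor, and the average change of 0.11 ± 0.05 did not pass (adjusted p = 0.362). On probe A_23_P19036 the levels were -1.61, -1.35 and -1.62 in Y30F-DMSO, -1.38, -1.33 and -1.12 in Y30F-DEX, -1.42, -1.53 and -1.24 in Y30E-DMSO and -1.42, -1.51 and -1.30 in Y30E-DEX. These groups overlapped as well, and the change was 0.25 with Y30F (adjusted p = 0.360) and -0.02 with Y30E (adjusted p = 0.966). The average on this probe was 0.12 (adjusted p = 0.590), and -0.01 with slide as a fixed block (adjusted p = 0.973).

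The mean level of each tested subunit gene was lower under dexamethasone with either receptor, and none of these changes passed the test. NFKB1 (NM_003998, A_23_P30024) encodes p105, the precursor of the p50 subunit. It stood at -0.81, -0.999 and -0.91 in Y30F-DMSO, -1.14, -0.95 and -1.04 in Y30F-DEX, -1.04, -0.99 and -1.07 in Y30E-DMSO and -1.12, -1.24 and -1.19 in Y30E-DEX. The treatments overlapped with Y30F and did not overlap with Y30E, where 4 of the 10 tested member probes did not overlap and 22.3% of all probes did not. With Y30F it was 3 of 10 beside 15.3%, and between all 6 dexamethasone and all 6 DMSO arrays 3 of 10 beside 3.41%. The average change of NFKB1 was -0.15 ± 0.05 (adjusted p = 0.158), with an interval of -0.25 to -0.04 that is not adjusted for the number of probes.

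RELA (NM_021975, A_23_P104689) encodes p65, the main activating subunit. Its level was -0.30, -0.43 and -0.44 in Y30F-DMSO, -0.62, -0.42 and -0.55 in Y30F-DEX, -0.48, -0.50 and -0.37 in Y30E-DMSO and -0.47, -0.60 and -0.48 in Y30E-DEX. The groups overlapped, and the average change was -0.10 ± 0.05 (adjusted p = 0.387). RELB (NM_006509, A_23_P55706), the partner of p52 in the alternative pathway, stood at 1.63, 1.98 and 1.80 in Y30F-DMSO, 1.63, 1.72 and 1.64 in Y30F-DEX, 1.85, 1.79 and 1.89 in Y30E-DMSO and 1.69, 1.72 and 1.79 in Y30E-DEX. Its average change was -0.13 ± 0.06 (adjusted p = 0.349), and the groups overlapped with either receptor. The unadjusted intervals were -0.21 to 0.0038 for RELA and -0.25 to -0.0025 for RELB. Neither gene was called, which does not show that its level was unchanged.

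NFKB1 and RELA are each spotted 10 times on every array, which shows the scatter within an array. The SD over the spots of NFKB1 was 0.05 to 0.09 within an array (log2, median 0.06), and the SD of its array means within a group was 0.04 to 0.10. For RELA the spot SD was 0.02 to 0.07 (median 0.04) and the SD of array means 0.07 to 0.10. The spots of an array share its RNA, labelling and hybridisation, so their SD covers only the error within an array. Of the 120 RELA spots, 14 (11.7%) carried an outlier flag and were left out, and none of those of NFKB1 did.

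**Figure D3:**
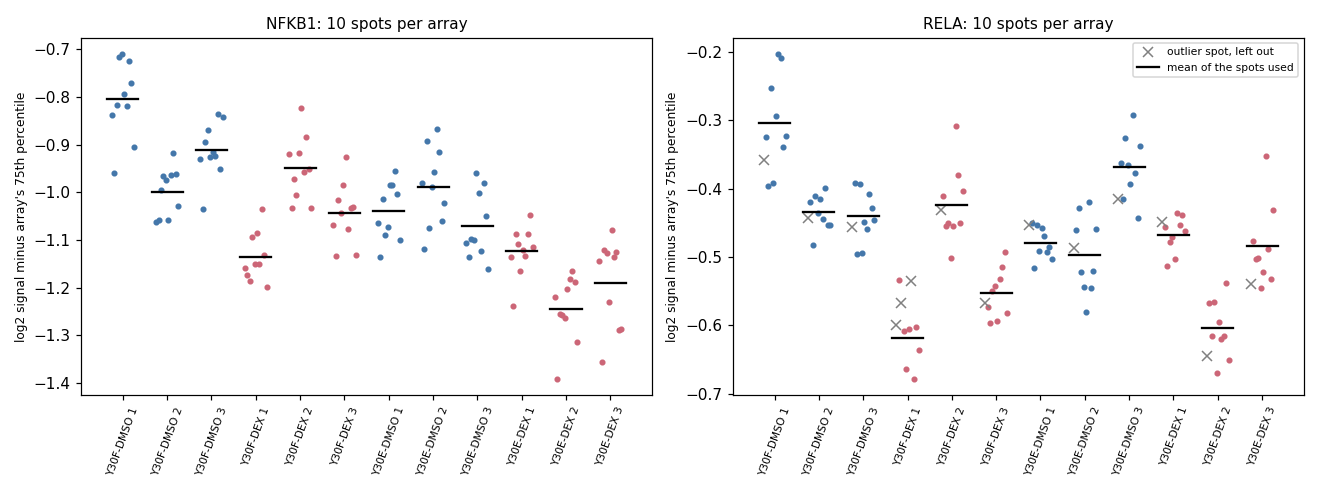
Level of every spot of NFKB1 (left) and RELA (right) on each of the 12 arrays (log2 signal minus the array's 75th percentile, y axis). Blue points are DMSO arrays and red points dexamethasone arrays, crosses are the 14 RELA spots flagged as outliers and left out, and lines are the means used. The spots of an array scatter by 0.05 to 0.09 (SD) for NFKB1 and by 0.02 to 0.07 for RELA.

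A difference between 2 probes on the same array does not depend on a scaling that shifts all log2 values of an array alike, such as the one used here. Quantile normalization and another background correction can change it. The size of such a difference also carries any mismatch of either probe, so it is not a ratio of gene levels. The pair NFKBIA and TNFAIP3 A_24_P157926 was chosen with its values known, so the difference is described and not tested. The level of NFKBIA minus that of TNFAIP3 was 2.71 ± 0.19 in Y30F-DMSO and 3.80 ± 0.02 in Y30F-DEX (log2, SD, n = 3). It was 2.85 ± 0.04 in Y30E-DMSO and 3.96 ± 0.18 in Y30E-DEX. On slide 1 the lone dexamethasone array stood at 3.82 and the DMSO arrays at 2.49, 2.83 and 2.81. On slide 3 the lone DMSO array stood at 2.89 and the dexamethasone arrays at 3.80, 4.15 and 3.94. Slide 2 held the other pairing, with 3.79 and 3.78 for Y30F-DEX and 2.84 and 2.81 for Y30E-DMSO. On each slide, then, the dexamethasone arrays were higher. NFKB1 minus RELA was -0.51 ± 0.05 in Y30F-DMSO and -0.51 ± 0.02 in Y30F-DEX. It was -0.58 ± 0.11 in Y30E-DMSO and -0.67 ± 0.03 in Y30E-DEX. The arrays of slide 3 ran from -0.71 to -0.64 under both treatments, below the 8 arrays of the other slides, from -0.56 to -0.47. The Y30E-DMSO arrays on slide 2 stood at -0.56 and -0.49. Slide 3 held no Y30F array, and the part of slide, receptor or treatment in these values was not tested.

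**Figure D4:**
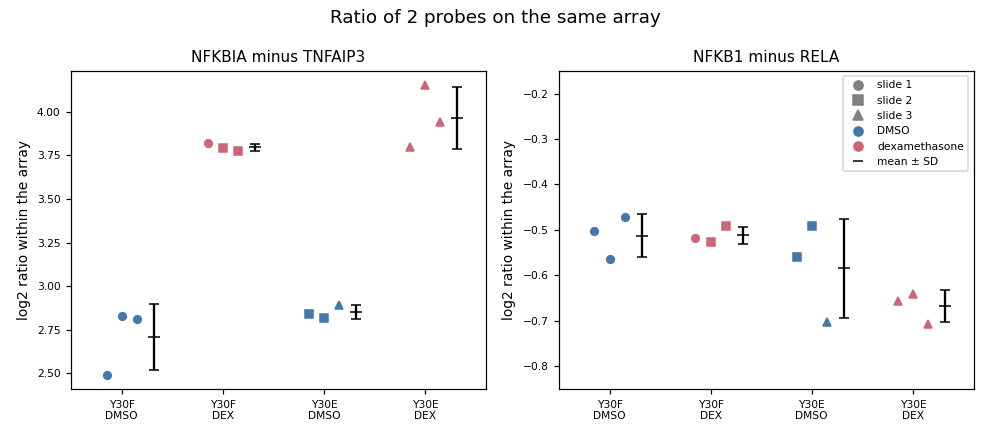
Difference in level between 2 probes on the same array (log2, y axis) by group: NFKBIA minus TNFAIP3 A_24_P157926 (left) and NFKB1 minus RELA (right). Points are arrays, colour is the treatment, marker shape the slide, bars are mean ± SD of 3 arrays. The left ratio is 2.49 to 2.89 under DMSO and 3.78 to 4.15 under dexamethasone, and the right one is lowest on slide 3.

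The next question was whether the effect of dexamethasone on these genes depended on the receptor mutant. None of the 10 tested member probes had a different effect in Y30E and Y30F by limma, also at an unadjusted p under 0.05. Neither did any of the 25570 probes after adjustment (0%, with 2777 at an unadjusted p under 0.05). The arrays of each receptor were spread unevenly over the slides, so slide and receptor are not fully told apart in this difference. With slide as a fixed block 0 of the 10 member probes and 23 of the 25570 probes were called. The difference of effects, Y30E minus Y30F, was 0.04 for NFKBIA with a 95% interval of -0.30 to 0.37 (adjusted p = 0.959). For TNFAIP3 A_24_P157926 it was 0.01, from -0.22 to 0.24 (adjusted p = 0.984), and for NFKBIE it was -0.01, from -0.17 to 0.14 (adjusted p = 0.966). The interval for NFKBIA reaches 0.37 beside an average rise of 0.64, and that for TNFAIP3 reaches 0.24 beside an average fall of 0.46, so they do not show that the mutants act alike. The largest difference among probes well above background on every array was that of TNIP1 A_23_P19036, -0.26, from -0.59 to 0.07 (adjusted p = 0.577).

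Between the receptors under DMSO, 0 of the 10 member probes differed by limma, with 0 at an unadjusted p under 0.05, beside 0.00782% of all probes (2 probes, with 3342 at an unadjusted p under 0.05). The arrays of all 10 overlapped, where 19.3% of all probes did not. NFKBIA differed by -0.01 (Y30E minus Y30F, from -0.25 to 0.23). TNFAIP3 A_24_P157926 differed by -0.15 (from -0.32 to 0.01) and NFKB1 by -0.13 (from -0.27 to 0.02). With median centring NFKB1 was lower in Y30E by this comparison (-0.31, adjusted p = 0.0480), as were 1270 of all probes, with 177 higher, and the median of all probes moved by -0.18. This comparison sets arrays of slides 2 and 3 against arrays of slide 1, so no slide holds both of its groups. With slide as a fixed block 0 of the 10 member probes and 2 of the 25570 probes were called. That fit links the slides only through the groups divided between them, and it assumes that a slide shifts every group alike. Without that assumption slide and receptor cannot be told apart.

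Under dexamethasone 0 of the 10 member probes differed between the receptors, with 0 at an unadjusted p under 0.05, beside 0% of all probes (3460 at an unadjusted p under 0.05). NFKBIA differed by 0.03 (Y30E minus Y30F, from -0.21 to 0.26). TNFAIP3 A_24_P157926 was the single member whose arrays did not overlap, at -1.87 to -1.77 in Y30E-DEX and -1.75 to -1.63 in Y30F-DEX, beside 20.6% of all probes, and its difference of -0.14 did not pass (adjusted p = 0.442). All Y30E-DEX arrays were on slide 3, and none of the Y30F-DEX arrays were. With slide as a fixed block 0 of the 10 member probes and 24 of the 25570 probes were called. Without the assumption that a slide shifts every group alike, slide and receptor cannot be told apart here either.

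Of the other probes, the one whose level ran most like that of NFKBIA over the 12 arrays belonged to record NM_003804 (Pearson's r = 0.981), followed by NM_024331 (r = 0.980). The 5 most alike had r from 0.978 to 0.981, as a description, since all values share the 12 arrays and the scaling of each. The treatment was left in these correlations, and all 5 rose in the average effect. A clear rise under dexamethasone can by itself give a high r, so the likeness is not particular to NFKBIA. NM_003804 rose by 0.50 and NM_024331 by 0.34 on average (log2, adjusted p = 0.000137 and 0.00103). The files pair these records with no gene names.

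Across 29 alternative ways of processing and choosing arrays, some of which repeat the same values, the average change of NFKBIA lay between 0.59 and 0.70 and passed the test in 28, all but the one with slide 2 left out. That of TNFAIP3 A_24_P157926 lay between -0.50 and -0.37 and passed in 28, with the same exception. That of NFKBIE lay between 0.13 and 0.18 and passed in 16. The alternatives with a threshold of 0.1 and with the deposited value table repeat the reported fit, so neither could lose a call.

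**Figure D5:**
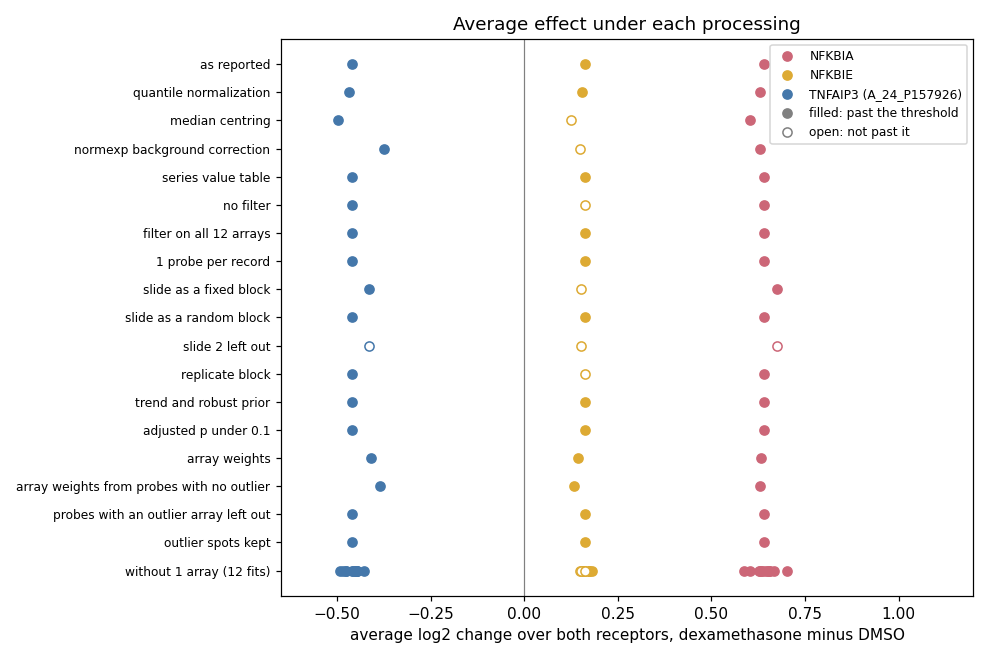
Average change under dexamethasone over both receptors (log2, x axis) of NFKBIA, NFKBIE and TNFAIP3 A_24_P157926 as reported and under each alternative (y axis). Filled points passed the test (at 0.1 in the alternative with that threshold) and open points did not. The lowest line holds the 12 fits without 1 array. NFKBIA stays between 0.59 and 0.70 and TNFAIP3 between -0.50 and -0.37, while NFKBIE is open in 13 of 29.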

How the data were processed

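The deposited spot intensity is Agilent's processed green signal, background-subtracted within the array and not scaled between arrays, per the file headers (Feature Extraction 12.0.0.7). Flags for outlier, saturated and well-above-background spots and the deposited median signal and background intensity are from the same files. After outlier spots had been left out, log2 signals were averaged over the spots of each probe and scaled by subtracting the array's 75th percentile (43376 non-control spots). Probes were tested if some group had a share of 0.5 or more of their spots well above background on each of its arrays. This left 25570 probes, 49 of them lacking a value on some array. Tests were run in R 4.3.3 with limma 3.58.1 (lmFit, eBayes; statmod 1.5.0 for the random block), with 4 group means fitted to the 12 arrays, which leaves 8 residual degrees of freedom. The p-values of each of 6 comparisons were adjusted by Benjamini-Hochberg over the probes tested. Groups came from the sample titles.

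The members, lists, comparisons and alternatives were chosen with earlier results of these data known. All members and probes are named by that rule. The probes most like NFKBIA were ranked by Pearson's r. Lists of pathway genes, of genes checked for the hormone and the transfected constructs, and of cell type markers were drawn up by gene name and were not used here, since the files pair records with no names, so the cell line's identity and the transfected genes were not checked. The members' names are those given with their records. The normexp alternative (offset 50) took each spot's median signal, because no mean signal column was used here. The test of the average effect was also run on simulated data with independent normal noise and no slide offsets. That run does not cover the slide layout, the array weights or the other comparisons. No sequences were used.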

Additional observations from a re-analysis of the deposited data

How the results depend on the processing

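No called member change turned its direction in any alternative. The 2 member probes called in Y30F became 1 with median centring and 0 with slide as a fixed block, with slide 2 left out, within slide 1 and with the compared groups alone. The 2 called in Y30E became 1 with median centring and 0 with slide as a fixed block, with slide 2 left out and within slide 3. The 3 called in the average became 0 with slide 2 left out. Leaving out each array in turn gave 1 to 2 in Y30F, 1 to 2 in Y30E, 2 to 3 in the average and 0 in the other comparisons. Between the receptors under DMSO, median centring gave 1 in place of 0. Over all probes the counts moved more: slide 2 left out gave 48 in Y30F, 97 in Y30E and 246 in the average in place of 421, 506 and 913, and without Y30F-DEX replicate 1 the Y30F count was 1488 and that of the difference of effects 1262 in place of 0. Median centring moved the median of all probes by up to 0.18 (log2), by -0.13 in Y30F, where 46.1% of its calls were higher in place of 77.2%, with 63.1% under quantile normalization. The cause of these changes was not tested. Some of the alternatives also hold fewer arrays.

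Array weights were computed in 2 ways, and the second was settled on after the values of the first had been seen. With weights from all tested probes (0.52 to 3.01) the member counts were 3 in Y30F, 2 in Y30E, 3 in the average and 0 in the other comparisons, while 1016 to 2184 of all probes were called in each comparison. With weights from the probes without an outlier (0.42 to 7.38, the highest for Y30F-DEX replicate 3), first tried and kept as an added alternative, they were 6, 3, 7, 1 for the difference of effects (TNIP1 A_23_P19036, -0.43, adjusted p = 0.0202), 0 between receptors under DMSO and 2 under dexamethasone (TNIP1 A_23_P19036 and TNFAIP3 A_24_P157926). This version called 2498 to 7240 of all probes. It added NFKB1, RELB and both TNIP1 probes to the average calls. Keeping outlier spots and leaving out probes with an outlier array, 2 alternatives also chosen after seeing the data, left the member counts as they were.

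Replicate numbers were also used as a block. Same-numbered arrays did not deviate together (r from -0.42 to 0.26, over 0.1 in 2 of 18 pairs), so the numbers were not taken as pairs. With the replicate block 2, 2 and 2 member probes were called in Y30F, in Y30E and in the average, where NFKBIE was lost (adjusted p = 0.0740), and 0 in the other comparisons. Probes near background, NFKBIZ and TNFAIP3 A_24_P166527, limit what can be read for those members.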
